A study of Mus musculus with 36 samples.

Results

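The genes described here are the chemokines and chemokine receptors of a mouse immune-oncology panel that remained after 21 others had been set aside, among them neutrophil-attracting, interferon-induced, monocyte-attracting, eosinophil-attracting and type 2 chemokines and some of their receptors. They were chosen by symbol alone: every endogenous panel gene whose symbol begins with Ccl, Ccr, Cxcl, Cxcr, Cx3c, Xcl or Xcr, except those 21. The rule left 32 genes, 19 ligands and 13 receptors, out of 53 chemokine genes and 750 endogenous genes on the panel. All 32 matched a RefSeq gene by the accession printed for their probe, under the same symbol.

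The samples were 36 pancreatic tumours, one library each, in 8 treatment arms. KPfC BMF-A3 pancreatic cancer cells had been placed in the pancreas of wild-type C57BL/6 mice in every arm, so all values come from 1 implanted cell line; the labels give no animal age. Mice were treated from day 10 after implantation, and the tumours were collected on day 35. RNA was counted with barcoded nCounter probes, which bind each transcript without amplification.

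The 6 Vehicle mice received none of the agents. The Axl inhibitor TP-0903, which blocks a receptor kinase of the TAM family, was given alone to 4 mice by oral gavage at 25 mg/kg each day. Gemcitabine, a nucleoside analogue used as chemotherapy, was given alone to 4 mice at 25 mg/kg intraperitoneally, 3 times a week. An antibody against PD1, the T cell checkpoint receptor (clone RMP14-1), was given alone to 4 mice at 5 mg/kg intraperitoneally on 2 days a week. The combinations were TP-0903 with gemcitabine (5 mice), TP-0903 with anti-PD1 (4), gemcitabine with anti-PD1 (4) and all 3 agents (5). Each library is a tumour with its own title, and the p-values below measure the spread between these tumours.

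Chemokines are small secreted or membrane-anchored proteins that guide leukocytes along concentration gradients, and each acts through one or more G protein-coupled receptors on the responding cell. Inflammatory chemokines recruit myeloid cells and effector lymphocytes to injured or cancerous tissue, while homeostatic chemokines place lymphocytes and dendritic cells within lymphoid organs. In pancreatic cancer, ligands are made by tumour cells, fibroblasts and macrophages, and receptors are carried mainly by the infiltrating leukocytes.

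Total endogenous and housekeeping counts per lane ran from 115973 to 552876, with a median of 357262. Each count was divided by the lane's factor from the geometric mean of 20 housekeeping genes, and the result is called the scaled count below; scaled counts of different probes are not compared as transcript levels, because probes differ in efficiency. A gene counted as above background in a lane when it exceeded the mean plus 2 SD of that lane's 8 negative controls, a limit of 8.21 to 26.3 counts. No 2 tumours of an arm were as close as counting noise alone would make them. The epithelial and tumour cell markers were above background in every arm, with a summed scaled count of at least 534 in every tumour.

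A pair of tumours stood apart. Vehicle replicate 3 had a summed scaled count of 13970 for the 3 lung markers (256 times the median tumour) and of 10840 for the 6 endothelial markers (18.1 times the median). TP-0903 replicate 3 had a sum of 176618 for the 10 hepatocyte markers (680 times the median), with the 3 epithelial markers at 0.0782 times the median. Pla2g1b and Dmbt1, listed as normal pancreas markers, summed to 96.4 in Vehicle replicate 3 and 35.6 in TP-0903 replicate 3. The next lowest sum of these markers was 8360, in TP-0903+anti-PD1 replicate 4. The hepatocyte sums of Anti-PD1 replicate 3 (4374) and of TP-0903+Gemcitabine replicate 3 (3593) were also high. The B cell and lymphoid tissue list exceeded 2.5 times its median in 7 tumours, spread over Vehicle, Gemcitabine, TP-0903+Gemcitabine, Gemcitabine+anti-PD1 and the triple arm. Results that rest on the first pair of tumours are given with and without them, as "without the 2 tumours". Lanes were run on 3 cartridges: Vehicle and TP-0903 alone shared one with 2 of the gemcitabine tumours, and the other 5 arms shared none with Vehicle. Those 5 can be compared with Vehicle within a cartridge block only through arms that span cartridges, Gemcitabine (2 tumours on each of cartridges 1 and 2) and TP-0903+anti-PD1 (1 on cartridge 2 and 3 on cartridge 3).

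Above background in every lane were 9 of the 32 genes: the ligands Ccl6, Ccl9, Ccl11, Ccl21a, Cxcl12, Cxcl14, Cxcl16 and Cx3cl1 and the receptor Ccr1. A further 20 passed the filter of at least 4 lanes, among them Cxcr6 with 4 lanes, Ccl4 with 6, Cxcr5 with 7, Xcl1 with 8 and Ccr6 with 9. The remaining 3 were not tested. Ccr4, a receptor of regulatory and type 2 helper T cells, and Cxcr1, a receptor of neutrophils, were above background in 0 lanes. Ccl28, a mucosal ligand, was above background in 3 lanes, with scaled counts of 46.6 in TP-0903 replicate 1, 12.8 in Gemcitabine+anti-PD1 replicate 2 and 44.5 in Gemcitabine+anti-PD1 replicate 3.

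**Figure D1:**
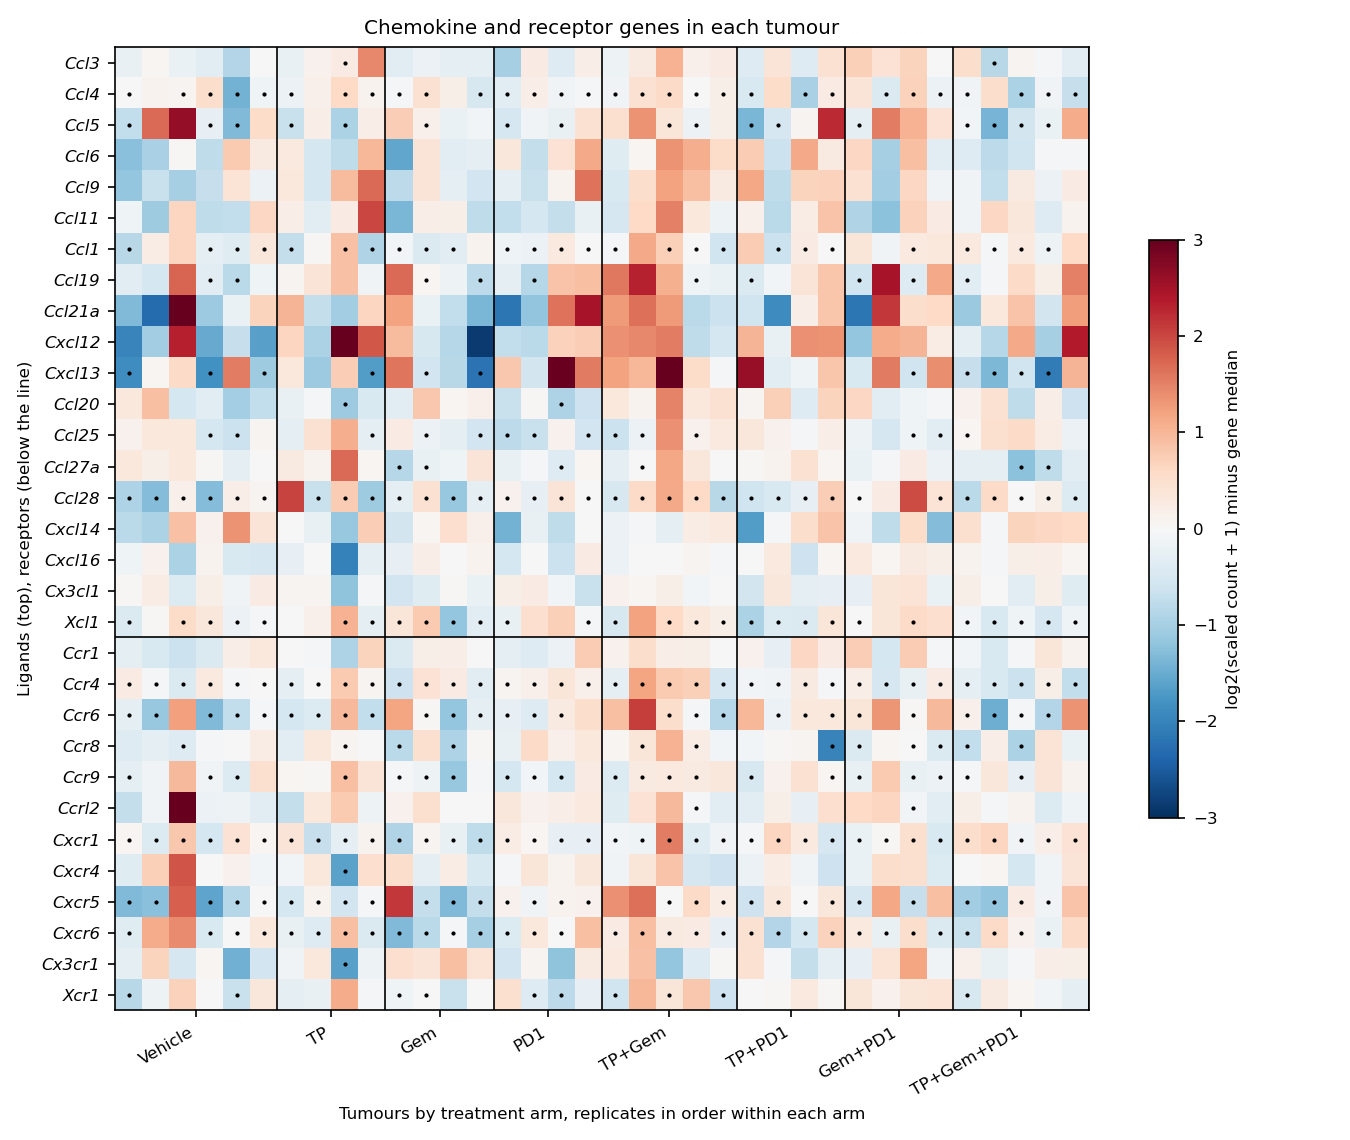
Each row is one of 31 of the genes (ligands above the line, receptors below) and each column one of the 36 tumours, ordered by arm. Colour is log2 of the scaled count plus 1, minus the gene's median over tumours, and a dot marks a value not above lane background. Vehicle replicate 3 is red for Ccl21a (1760), Ccrl2 (224) and Cxcr4 (347), and TP-0903 replicate 3 is red for Cxcl12 (3084) and blue for Cxcl16 (185).

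None of the 29 tested genes passed an adjusted p of 0.05 in any of the 14 comparisons made with edgeR's quasi-likelihood test, and DESeq2 and limma also called 0 of them. Over all 683 tested genes, 4.83% passed for TP-0903 against Vehicle, 0.439% for TP-0903+Gemcitabine, 0.146% for Gemcitabine+anti-PD1, 0.878% for the triple arm, and 0% for Gemcitabine, Anti-PD1 and TP-0903+anti-PD1. At an unadjusted p under 0.05, 3 members were higher and 0 lower in TP-0903 than in Vehicle, against 14.5% of all genes in either direction. The matching counts were 1 higher and 1 lower in Gemcitabine (all genes 9.08%), 1 and 1 in Anti-PD1 (5.71%), 4 and 0 in TP-0903+Gemcitabine (14.9%), 1 and 0 in TP-0903+anti-PD1 (10.7%), 1 and 0 in Gemcitabine+anti-PD1 (10.5%) and 0 and 2 in the triple arm (12.9%). These 7 comparisons share the same 6 Vehicle tumours. The median log2 difference of the members from Vehicle was 0.35 in TP-0903+Gemcitabine (all genes 0.07) and 0.22 in Gemcitabine+anti-PD1 (all genes 0.05), and lay between -0.16 and 0.12 in the other 5 arms. After scaling, the background limit ran from 17.6 to 32.4 in TP-0903+Gemcitabine and from 13.7 to 21.5 in Vehicle. Counts near background can therefore scale higher in TP-0903+Gemcitabine, and the part of this in the median of 0.35 was not tested.

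The factorial design also allows each agent to be averaged over its 4 backgrounds of the other agents. For TP-0903, 4 members were higher and 0 lower at an unadjusted p under 0.05 (all genes 11.4%); for gemcitabine, 3 and 0 (14.3%); for anti-PD1, 0 and 1 (5.71%). Adjusted calls over all genes were 0% for TP-0903 and anti-PD1 and 0.146% for gemcitabine. Without the 2 tumours edgeR again called 0 members in the 14 comparisons. Over all 683 tested genes it then called 0 for TP-0903 against Vehicle (33 with them) and 1 in the F test (38). It called 17 for the average effect of gemcitabine (1 with them), 4 for TP-0903+Gemcitabine (3) and 4 for Gemcitabine+anti-PD1 (1). The other comparisons had 0, among them the triple arm (6 with them) and the interaction of TP-0903 and anti-PD1 (10). Unadjusted p-values under 0.05 were then held by 4 members in TP-0903 (all genes 6.3%), 2 in Gemcitabine (6.88%), 3 in Anti-PD1 (5.27%), 6 in TP-0903+Gemcitabine (23.6%), 2 in TP-0903+anti-PD1 (11.7%), 7 in Gemcitabine+anti-PD1 (17.3%) and 2 in the triple arm (8.78%). For the average effects they were held by 3 members for TP-0903 (9.08%), 5 for gemcitabine (14.5%) and 0 for anti-PD1 (3.07%), and for the interactions by 2 for TP-0903 with gemcitabine (7.17%), 5 for TP-0903 with anti-PD1 (10.7%) and 1 for gemcitabine with anti-PD1 (3.51%). In the F test among the 8 arms, 2 members had an unadjusted p under 0.05 (all genes 13.8%, with 5.56% called after adjustment), and 1 without the 2 tumours (13.6%).

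The members' log2 differences from the arm comparisons, average effects and interactions included 30 with an unadjusted p under 0.05. With the cartridge as a block, all 30 kept their direction, 12 still had an unadjusted p under 0.05, none was called and 9 moved by over 1.5 times. The 30 and the 12 include 3 differences of TP-0903 from Vehicle (Ccl3, Ccl9 and Cxcl12). Both arms lie on 1 cartridge, so the block could not move these 3. Scaling by positive controls in place of housekeeping genes moved 12 of the 30 by over 1.5 times. Such shifts are given below beside the values they concern, and for positive controls they include a shift of all genes: the median over all 683 moved from 0.07 to -0.59 in TP-0903+Gemcitabine, from 0.03 to -0.20 in the average effect of TP-0903 and from -0.03 to -0.18 in that of gemcitabine.

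The 95% interval of an average effect had a half-width of 0.24 on the log2 scale for Cx3cl1, the narrowest, of 0.40 for the median member under TP-0903 and of 1.00 for Ccl21a, the widest. For TP-0903 against Vehicle alone the median half-width was 0.78.

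**Figure D2:**
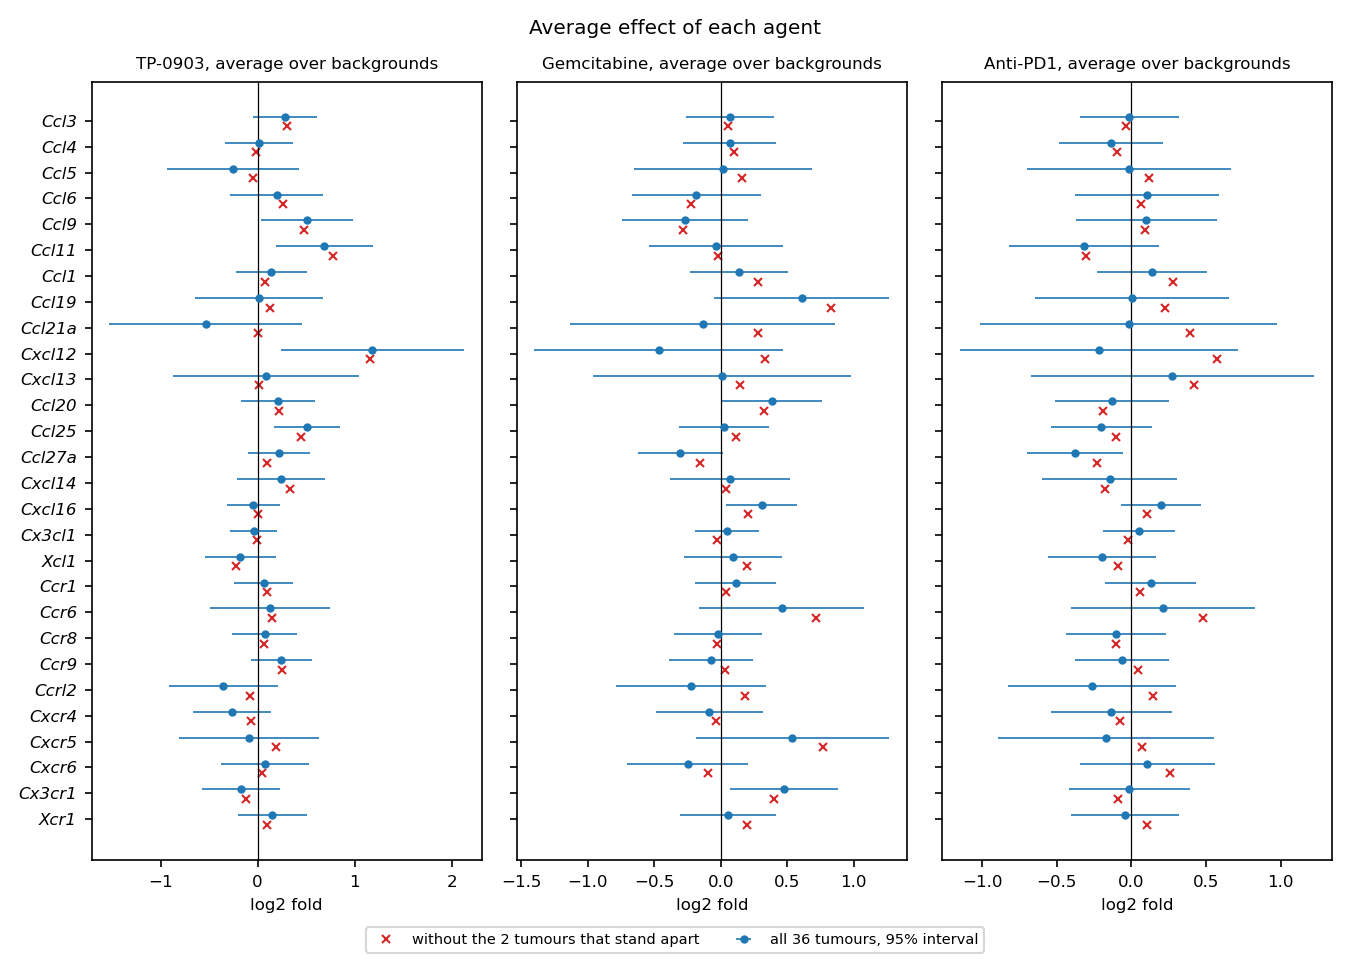
Points are the average log2 difference made by TP-0903, gemcitabine and anti-PD1 for 28 tested members, with 95% intervals; red crosses are the same estimate without Vehicle replicate 3 and TP-0903 replicate 3. Cxcl12 lies at 1.18 for TP-0903, Cxcl16 at 0.31 for gemcitabine and Ccl27a at -0.38 for anti-PD1 (-0.93 with the cartridge block), and no member passed the adjusted threshold.

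Ccl9 and Ccl6 are mouse CC chemokines that signal through Ccr1 and attract myeloid cells. Both were above background in every tumour, and they lie 14.5 kb apart on chromosome 11. Because they varied together across tumours (below, r = 0.80), the 250 bases before each annotated start are shown, from the RefSeq table with build GRCm38.p6. Capitals mark their best stretch without gaps, scored as matches minus mismatches. It has 17 positions of which 16 are identical, at -18 to -2 in Ccl9 and -59 to -43 in Ccl6. For Ccl19 and Ccl21a, neighbours that also varied together, the best stretch had 35 positions of which 23 were identical. How often unrelated windows share such stretches was not computed.
Ccl9 (chr11:83578637-83578886, minus strand): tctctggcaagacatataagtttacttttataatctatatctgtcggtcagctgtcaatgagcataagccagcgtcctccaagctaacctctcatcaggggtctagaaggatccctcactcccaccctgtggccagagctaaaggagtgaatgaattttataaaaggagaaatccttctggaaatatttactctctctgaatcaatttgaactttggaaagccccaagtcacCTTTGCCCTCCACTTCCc
Ccl6 (chr11:83593088-83593337, minus strand): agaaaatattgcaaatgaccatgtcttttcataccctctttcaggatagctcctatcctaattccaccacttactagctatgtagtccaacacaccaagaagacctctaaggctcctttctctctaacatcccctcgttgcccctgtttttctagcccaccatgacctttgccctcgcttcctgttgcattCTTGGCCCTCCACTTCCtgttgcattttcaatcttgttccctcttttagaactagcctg

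Both strands of these windows were searched for the PU.1 box GAGGAA, the AP-1 site TGANTCA, the TATA box TATAAA and the NF-kB site. The Ccl9 window held 1 AP-1 match at -53, 3 TATA matches and 1 NF-kB match at -35. The Ccl6 window held none of these letters. Among 32851 RefSeq windows of the same length, 6.75% held an AP-1 match, 12.4% a TATA match, 7.25% an NF-kB match and 23.3% a PU.1 match. A match describes the letters and is not shown to be a working site.

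The scaled count of Ccl9 in Vehicle ran from 222 to 667, with a median of 313. It was 347, 625.1, 966 and 1625 in TP-0903, 289, 336, 415 and 652 in Gemcitabine, and 317, 417, 538 and 1558 in Anti-PD1. Of these, 2 TP-0903 tumours and 1 Anti-PD1 tumour lay above every Vehicle tumour, and all 3 arms overlapped Vehicle. In the combinations it was 365, 601, 720, 933 and 1156 in TP-0903+Gemcitabine, 293, 791.4, 809 and 1120 in TP-0903+anti-PD1, 242, 463, 684 and 767 in Gemcitabine+anti-PD1, and 300, 443, 467, 593 and 601 in the triple arm. The triple arm stayed within the Vehicle range, while the other combinations reached beyond it and overlapped it.

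Against Vehicle, the log2 difference of Ccl9 was 1.27 ± 0.44 (SE) in TP-0903, with edgeR adjusted p = 0.103. Leaving out 1 tumour at a time moved it between 0.81 (without TP-0903 replicate 4) and 1.54 (without TP-0903 replicate 2, adjusted p = 0.0295), and without Vehicle replicate 5 it was 1.53 with an adjusted p of 0.0456; on cartridge 1 alone it was 1.27 with an adjusted p of 0.368. It was 0.94 ± 0.44 in Anti-PD1 (adjusted p = 0.843), 1.04 ± 0.42 in TP-0903+Gemcitabine (0.250; 0.23 under positive controls) and 1.03 ± 0.44 in TP-0903+anti-PD1 (0.394; 1.93 ± 0.99 with the cartridge block). In Gemcitabine, Gemcitabine+anti-PD1 and the triple arm it was 0.20 ± 0.44, 0.55 ± 0.44 and 0.39 ± 0.41. Averaged over backgrounds, TP-0903 made a difference of 0.51 ± 0.23 (adjusted p = 0.375), and the interaction of TP-0903 with anti-PD1 was -1.09 ± 0.46 (adjusted p = 0.322). Under positive controls these were 0.27 and -0.70. The 6 macrophage markers on the panel, of 7 listed, summed to a median of 1098 in Vehicle (776 to 1448) and 1604 in TP-0903 (962 to 2271), and all 6 were above background in some tumour of every arm; their part in the Ccl9 difference was not tested. In whole-tumour RNA, fewer cells of a type and less RNA per cell cannot be told apart.

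Ccl6 had scaled counts of 75.8 to 313 in Vehicle, with a median of 146. The counts were 107, 125, 221 and 364 in TP-0903, 60.3, 144, 149 and 236 in Gemcitabine, and 110, 228, 244 and 399 in Anti-PD1. They were 141, 189, 266, 389 and 462 in TP-0903+Gemcitabine, 115, 220, 307 and 398 in TP-0903+anti-PD1, 90.5, 144, 280 and 340 in Gemcitabine+anti-PD1, and 104, 119, 138, 175 and 175 in the triple arm. Every arm overlapped Vehicle. The largest log2 difference from Vehicle was 0.81 ± 0.42 in TP-0903+Gemcitabine (edgeR adjusted p = 0.364), and in the other arms it lay between -0.21 ± 0.43 in the triple arm and 0.65 ± 0.45 in TP-0903+anti-PD1. So Ccl9 had unadjusted p-values under 0.05 in 4 of the 7 comparisons with Vehicle, and Ccl6, its neighbour, in 0, with 1 among all 14 comparisons without the 2 tumours.

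The remaining inflammatory ligands, like other genes named below beyond Ccl27a, Cxcl13, Cxcl16, Cxcl14, Cxcl12, Ccl21a, Ccr9 and Xcr1, were singled out after their values were seen. Ccl3, a ligand of Ccr1 made by activated macrophages and lymphocytes, had scaled counts of 15.8 to 31.3 in Vehicle (median 25.8) and of 25.5, 33.1, 35.6 and 82.5 in TP-0903. Above every Vehicle tumour lay 33.1 and 82.5, and also 35.6, which is TP-0903 replicate 3 with 19 raw counts, not above lane background. The log2 difference was 0.80 ± 0.30 (edgeR adjusted p = 0.155), and 0.29 without TP-0903 replicate 4. The difference on the same scale was 0.73 ± 0.30 in Gemcitabine+anti-PD1 (adjusted p = 0.421; 0.18 ± 0.83 with the cartridge block). It was 0.60 ± 0.29 in TP-0903+Gemcitabine (0.313), where scaling by positive controls turned it to -0.15.

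Ccl11, or eotaxin, which attracts eosinophils, had scaled counts of 24.4 to 82.3 in Vehicle (median 39.1) and of 41.0, 59.7, 61.8 and 211 in TP-0903, so the arms overlapped with 1 TP-0903 tumour above. Its average difference under TP-0903 was 0.69 ± 0.25 on the log2 scale (edgeR adjusted p = 0.317). Ccl5, a ligand of Ccr1 made by T cells and NK cells, was highest in Vehicle replicate 3 (124) and in TP-0903+anti-PD1 replicate 4 (94.0), against an overall median of 19.1. Ccl4, an inflammatory ligand related to Ccl3, stayed between 4.40 and 22.3 in scaled counts and Ccl1, the ligand of Ccr8, between 6.88 and 31.3; neither reached an unadjusted p under 0.05 in any comparison.

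Ccl19, Ccl21a, Cxcl12 and Cxcl13 are the ligands that organise lymphoid tissue: the first pair guides naive T cells and dendritic cells through Ccr7, Cxcl12 acts through Cxcr4, and Cxcl13 draws B cells through Cxcr5. Their levels differed widely between single tumours. The highest tumour exceeded the overall median by 18.97 times for Cxcl13, 18 times for Cxcl12, 12.2 times for Ccl21a and 5.77 times for Ccl19. Arms accounted for 4.11% of the log2 variation of Ccl21a and 12.4% of that of Ccl19, against 25.3% for Cxcl12 and 30.02% for Cxcl13. With 8 arms and 36 tumours a share of 20% arises on average with no difference between arms, and the median over the 683 tested genes was 19.7%.

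Cxcl12 had scaled counts of 42.3 to 853 in Vehicle, with a median of 70.3. The counts were 87.6, 266, 614 and 3084 in TP-0903, 22.3, 93.2, 121 and 329 in Gemcitabine, and 96.9, 101, 273 and 282 in Anti-PD1. The top value of Vehicle and that of TP-0903 belong to the 2 tumours that stood apart, and each treated arm overlapped Vehicle. Without Vehicle replicate 3 the highest Vehicle count was 105, and all 4 TP-0903+anti-PD1 tumours lay above it, while the other arms still overlapped. In the combinations Cxcl12 was 100, 116, 437, 462 and 490 in TP-0903+Gemcitabine, 144, 346, 429 and 437 in TP-0903+anti-PD1, 75.0, 199, 342 and 366 in Gemcitabine+anti-PD1, and 84.6, 92.3, 141, 371 and 883 in the triple arm.

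The log2 difference of Cxcl12 between TP-0903 and Vehicle was 2.35 ± 0.87 (edgeR adjusted p = 0.140). It was 2.24 without the 2 tumours (adjusted p = 0.632), 0.70 without TP-0903 replicate 3 only, and 3.88 without Vehicle replicate 3 only, when the adjusted p was 0.00228. The average difference under TP-0903 was 1.18 ± 0.46 (adjusted p = 0.318), and 1.16 without the 2 tumours. Without them, the difference from Vehicle was 2.23 in TP-0903+Gemcitabine (0.69 with them), 2.30 in TP-0903+anti-PD1 (0.77), 1.85 in Gemcitabine+anti-PD1 (0.31), 2.20 in the triple arm (0.67), 1.46 in Anti-PD1 (-0.08) and 1.04 in Gemcitabine (-0.49). None of these was called; the lowest adjusted p among them was 0.0820, for TP-0903+Gemcitabine.

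Ccl21a had scaled counts of 28.2 to 1760 in Vehicle, with a median of 95.6, and 1760 is Vehicle replicate 3. The counts were 69.3, 87.6, 225 and 290 in TP-0903, 54.5, 85.2, 124 and 331 in Gemcitabine, and 31.2, 62.2, 445 and 796.3 in Anti-PD1. They were 81.3, 90.9, 346, 347 and 453 in TP-0903+Gemcitabine, 37.9, 94.3, 165 and 257 in TP-0903+anti-PD1, 30.9, 207, 217 and 628 in Gemcitabine+anti-PD1, and 65.3, 98.2, 178, 260 and 341 in the triple arm. All 7 treated arms overlapped Vehicle. The fitted difference from Vehicle was negative in every treated arm, from -1.45 ± 0.98 in TP-0903+anti-PD1 to -0.18 ± 0.93 in Anti-PD1, and positive in every one without the 2 tumours, from 0.44 in TP-0903+anti-PD1 to 1.73 in Anti-PD1. No direction of Ccl21a was called with or without them. The mouse genome holds near-identical copies of Ccl21a and of Ccl27a, and whether these probes also count the copies was not tested.

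Cxcl13 was above background in 25 of the 36 lanes, in 3 of 6 Vehicle tumours, all 5 TP-0903+Gemcitabine tumours and 1 of 5 triple-arm tumours. Scaled counts in Vehicle ran from 6.56 to 78.4, with a median of 19.8. They were 25.5, 39.6, 53.8, 62.2 and 503 in TP-0903+Gemcitabine, 17.8, 47.2, 79.5 and 213 in Anti-PD1, and 5.46, 9.89, 16.1, 17.04 and 54.8 in the triple arm. The triple arm lay inside or just below the Vehicle range, and 1 TP-0903+Gemcitabine tumour and 2 Anti-PD1 tumours lay above it. They were 7.64, 11.8, 33.5 and 44.9 in TP-0903, 4.96, 14.4, 17.5 and 82.9 in Gemcitabine, 20.8, 23.98, 48.1 and 167 in TP-0903+anti-PD1, and 17.2, 19.05, 71.8 and 80.1 in Gemcitabine+anti-PD1. Each of these arms overlapped Vehicle as well.

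Cxcl13 had the second smallest F test p of the members, 0.0368 before adjustment and 0.307 after it by edgeR. The log2 difference from Vehicle was 2.25 ± 0.84 in TP-0903+Gemcitabine (adjusted p = 0.218) and 0.67 without TP-0903+Gemcitabine replicate 3, which held the count of 503 and a hepatocyte sum of 3593. It was 4.63 ± 1.63 with the cartridge block (adjusted p = 0.243) and 1.18 under positive controls. It was 1.64 ± 0.87 in Anti-PD1 (adjusted p = 0.854) and -0.42 ± 0.87 in the triple arm (0.918), and the interaction of gemcitabine and anti-PD1 was -2.54 ± 0.94 (unadjusted p = 0.0111, adjusted p = 0.979).

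Ccl19 had an average log2 difference of 0.61 ± 0.32 under gemcitabine (edgeR adjusted p = 0.384), and 0.83 without the 2 tumours (0.169). Its highest tumours were Gemcitabine+anti-PD1 replicate 2 (139) and TP-0903+Gemcitabine replicate 2 (123), both among the 7 with a high B cell and lymphoid tissue sum (478 and 578). Without the 2 tumours, TP-0903+Gemcitabine differed from Vehicle by 1.69 ± 0.56 for Ccl19 (1.03 ± 0.57 with them), 2.01 ± 0.58 for the B cell receptor gene Cxcr5 (1.01 ± 0.60) and 1.57 ± 0.51 for Ccr6 (1.02 ± 0.53). The adjusted p-values without them were 0.0895, 0.0820 and 0.0883, and 23.6% of all genes then had an unadjusted p under 0.05. Cxcr5 and Ccr6 were each above background in 1 of 6 Vehicle tumours, replicate 3, and in 2 of 5 TP-0903+Gemcitabine tumours. Without Vehicle replicate 3 neither receptor was measured above background in Vehicle, so the sizes for Cxcr5 and Ccr6 are ratios to background. The 9 B cell and lymphoid tissue markers summed to a median of 252 in TP-0903+Gemcitabine (121 to 578) against 107 in Vehicle (75.7 to 473), with 1 and 2 of the 9 never above background in those arms; their part in these differences was not tested.

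The lymphotoxin pathway induces these ligands in lymphoid tissue. Of the 9 genes listed for it, 8 were on the panel and 7 were tested, and edgeR called 0 of them in all 14 comparisons, with a smallest adjusted p of 0.335. At an unadjusted p under 0.05, 1 was higher in Gemcitabine+anti-PD1 (all genes 10.5%), 1 in the triple arm (12.9%) and 2 in the average effect of anti-PD1 (5.71%). In the average effect of gemcitabine 1 was higher and 1 lower (14.3%).

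**Figure D3:**
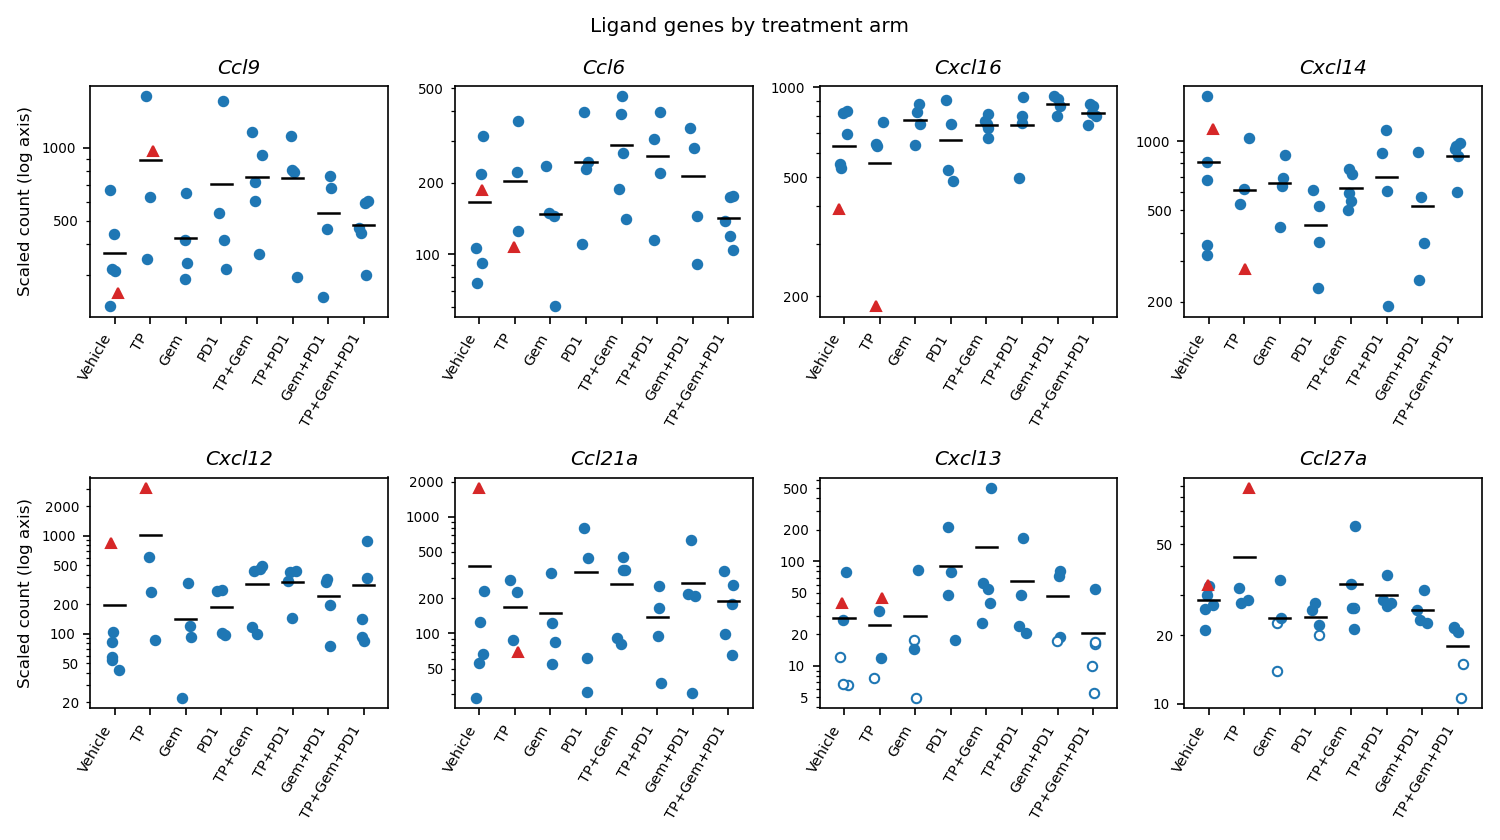
Scaled counts on a log axis for 8 ligands in the 8 arms; each point is a tumour, the bar is the arm mean, red triangles are Vehicle replicate 3 and TP-0903 replicate 3, and open points were not above lane background. Cxcl16 stays between 393 and 930 apart from TP-0903 replicate 3 (185), whereas Cxcl12 ranges from 22.3 to 3084 and Ccl21a from 28.2 to 1760.

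Cxcl16, Cxcl14, Cx3cl1, Ccl20, Ccl25 and Ccl27a are chemokines that epithelia produce, among other cells. Cxcl16, a membrane-anchored ligand of Cxcr6 that also binds lipids as a scavenger receptor, varied little, with a coefficient of variation of 22.6% over the 36 tumours. Its scaled counts were 393 to 828.6 in Vehicle, with a median of 624. They were 185, 634, 648 and 763.7 in TP-0903, 638, 754, 825 and 877.1 in Gemcitabine, 484, 530, 753.3 and 902 in Anti-PD1, and 674, 732, 753.4, 768.7 and 811 in TP-0903+Gemcitabine. They were 497, 761, 800 and 929 in TP-0903+anti-PD1, 798.7, 862.01, 915 and 930 in Gemcitabine+anti-PD1, and 747, 799.3, 817, 867 and 874 in the triple arm. The 18 gemcitabine-treated tumours all lay at or above 638, and every arm overlapped Vehicle. The average difference under gemcitabine was 0.31 ± 0.13 on the log2 scale (edgeR adjusted p = 0.267), 0.21 without the 2 tumours and 0.09 under positive controls.

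Cx3cl1, or fractalkine, had the lowest coefficient of variation, 20.95%, with scaled counts from 44.9 in TP-0903 replicate 3 to 140 in Gemcitabine+anti-PD1 replicate 3. The low values of Cx3cl1 and Cxcl16 in TP-0903 replicate 3 stood beside an epithelial marker sum of 534, whose part in them was not tested.

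Cxcl14, an epithelial and fibroblast chemokine, had scaled counts of 318 to 1566 in Vehicle, with a median of 743. The counts were 279, 532, 618 and 1030 in TP-0903, 422, 641, 690 and 873 in Gemcitabine, and 229, 366, 525 and 615 in Anti-PD1. They were 503, 548, 597, 722 and 754 in TP-0903+Gemcitabine, 191, 607, 891.1 and 1118 in TP-0903+anti-PD1, 249, 361, 573 and 899 in Gemcitabine+anti-PD1, and 599, 859, 928, 952 and 978 in the triple arm. All arms overlapped Vehicle, whose own tumours spanned most of the range. The difference of Anti-PD1 from Vehicle was -0.90 ± 0.44 on the log2 scale (edgeR adjusted p = 0.853; -1.46 ± 0.72 with the cartridge block), and that of the triple arm was 0.09 ± 0.40.

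Ccl27a, a skin-homing ligand, had the smallest F test p of the members, 0.0265 before adjustment and 0.254 after it by edgeR; without the 2 tumours the unadjusted p was 0.0863. Scaled counts in Vehicle ran from 21.1 to 33.1, with a median of 28.6. They were 27.5, 28.4, 32.02 and 88.0 in TP-0903 and 10.7, 15.01, 20.5, 21.4 and 21.8 in the triple arm, of which 3 lay below every Vehicle tumour. The value of 88.0 is TP-0903 replicate 3. The counts were 13.996, 22.5, 23.8 and 34.7 in Gemcitabine, 19.9, 22.2, 25.8 and 27.6 in Anti-PD1, and 21.3, 26.3, 26.3, 33.4 and 59.98 in TP-0903+Gemcitabine. They were 26.9, 27.5, 28.4 and 36.6 in TP-0903+anti-PD1 and 22.6, 23.3, 25.6 and 31.4 in Gemcitabine+anti-PD1. The triple arm differed from Vehicle by -0.64 ± 0.29 on the log2 scale (adjusted p = 0.366), and by -1.53 ± 0.79 with the cartridge block (adjusted p = 0.999). In that arm 2 of the 5 tumours were not above lane background, so these counts lie close to what the lanes could resolve.

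Ccl20, the ligand of Ccr6, was highest in TP-0903+Gemcitabine replicate 3 (105), and that arm differed from Vehicle by 0.71 ± 0.33 on the log2 scale (edgeR adjusted p = 0.296); scaling by positive controls turned this to -0.13. Ccl25, the thymic and intestinal ligand of Ccr9, was above background in 22 lanes, and its average difference under TP-0903 was 0.51 ± 0.17 (adjusted p = 0.317), between 0.40 and 0.57 when any 1 tumour was left out and 0.22 under positive controls. Xcl1, made by T cells and NK cells, was above background in 8 lanes. The interaction of TP-0903 and anti-PD1 was -0.88 ± 0.32 for Ccl3 (adjusted p = 0.217; -0.52 under positive controls) and 0.95 ± 0.45 for Cxcl14 (0.405; 0.13 ± 0.51 with the cartridge block). In that interaction 1 member was higher and 3 were lower at an unadjusted p under 0.05 (all genes 11.6%, with 1.46% called). Xcl1 was among the lower ones, but 0 of 4 TP-0903+anti-PD1 and 0 of 5 triple-arm tumours were above background for it, so no size is given, and the median over members was -0.38 against -0.19 for all genes.

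Of the 13 receptor genes 11 were tested, and Ccr1 alone was above background in every lane. Ccr1, which binds Ccl3, Ccl5, Ccl6 and Ccl9 and is carried by monocytes, macrophages and neutrophils, ran from 39.3 to 130 in scaled counts. Cxcr4, carried by most leukocytes, ran from 29.96 in TP-0903 replicate 3 to 347 in Vehicle replicate 3. Ccrl2, an atypical receptor that binds chemerin, was 224 in Vehicle replicate 3 and at most 51.2 elsewhere. The difference of the triple arm from Vehicle for Ccrl2 was -1.12 ± 0.50 on the log2 scale (edgeR adjusted p = 0.362), and 0.24 without the 2 tumours.

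Cx3cr1, the fractalkine receptor of monocytes and macrophages, had scaled counts of 29.9 to 133 in Vehicle (median 62.7) and of 109, 110, 118 and 157 in Gemcitabine. All 4 gemcitabine tumours lay in the upper part of the Vehicle range or above it. The log2 difference was 0.78 ± 0.37 (edgeR adjusted p = 0.525), and the average difference under gemcitabine was 0.48 ± 0.20 (0.249; 0.29 under positive controls). Cxcr6, carried by effector and resident T cells, had counts of 3.23, 4.34, 5.00 and 9.39 in Gemcitabine and of 6.77 to 27.1 in Vehicle (median 10.9). The log2 difference was -1.31 ± 0.43 (adjusted p = 0.259), and 0 of the 4 gemcitabine tumours and 2 of the 6 Vehicle tumours were above lane background, so it was not measured above background in that arm.

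Ccr9, the receptor for Ccl25, was above background in 15 lanes. Its scaled counts were 11.4 to 31.1 in Vehicle (median 14.3), 15.8, 16.01, 20.6 and 29.96 in TP-0903, 6.502, 13.7, 14.9 and 15.1 in Gemcitabine, and 10.4, 10.4, 14.5 and 18.6 in Anti-PD1. They were 11.5, 18.8, 18.8, 19.02 and 19.9 in TP-0903+Gemcitabine, 10.8, 16.04, 17.03 and 21.5 in TP-0903+anti-PD1, 13.1, 13.2, 13.6 and 27.2 in Gemcitabine+anti-PD1, and 12.8, 15.2, 16.6, 19.8 and 20.5 in the triple arm. The arms overlapped throughout, and the log2 difference from Vehicle lay between -0.48 ± 0.30 in Gemcitabine and 0.20 ± 0.29 in TP-0903.

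Xcr1, which marks the cross-presenting dendritic cells that respond to Xcl1, was above background in 26 lanes. Its scaled counts were 10.9 to 33.1 in Vehicle (median 19.2), 16.7, 17.4, 19.9 and 44.9 in TP-0903, 12.3, 18.3, 19.99 and 20.4 in Gemcitabine, and 11.4, 15.3, 17.03 and 28.5 in Anti-PD1. They were 12.8, 13.1, 26.3, 36.5 and 41.3 in TP-0903+Gemcitabine, 20.2, 20.6, 20.8 and 25.2 in TP-0903+anti-PD1, 22.4, 26.2, 26.3 and 27.1 in Gemcitabine+anti-PD1, and 14.2, 16.6, 19.1, 21.3 and 24.7 in the triple arm. Every arm overlapped Vehicle, and the log2 difference lay between -0.18 ± 0.33 in Gemcitabine and 0.36 ± 0.31 in TP-0903+Gemcitabine. The other receptors, Ccr6 of B cells and dendritic cells, Ccr8 of regulatory T cells and Cxcr5 of B cells, had no unadjusted p under 0.05 in the fit of all 36 tumours. Without the 2 tumours Cxcr5 had one in 4 of the 14 comparisons, Ccr6 in 3 and Ccr8 in 0. With the cartridge block, and leaving the F test aside, the counts were 4, 4 and 0. None was called in either fit. In the interaction of TP-0903 and gemcitabine, 1 member was higher and 1 lower at an unadjusted p under 0.05 (all genes 5.12%, with 0% called). The higher one was Cxcr6, above background in 0 tumours of TP-0903, Gemcitabine and TP-0903+Gemcitabine, so no size is given. In the interaction of gemcitabine and anti-PD1 the member at that level was Cxcl13 (all genes 3.66%, with 0% called).

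Whether ligands and their receptors varied together was examined over the 36 tumours, on log2 of the scaled count plus 1 with each arm's mean removed, with 100000 shuffles within arms and Benjamini-Hochberg adjustment over the pairs. Of 17 ligand-receptor pairs listed, 15 had both genes tested, 12 had a positive Pearson r and 2 passed an adjusted permutation p of 0.05. Other gene pairs were not examined. The share over all pairs is therefore not known, and these counts do not show a trait particular to ligands and their receptors. Ccl6 and Ccr1 had r = 0.74 and Spearman rho = 0.75, with permutation p = 1e-05, the smallest these shuffles can give, and an adjusted permutation p of 0.00015. The r was 0.69 without the 2 tumours farthest from the median of Ccl6, 0.78 without the 2 tumours that stood apart, and 0.75, 0.44 and 0.96 within the 3 cartridges (12, 11 and 12 tumours).

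Ccl9 and Ccr1 had r = 0.65 and rho = 0.67, with permutation p = 0.00065 and an adjusted permutation p of 0.00487. The r was 0.77 without the 2 tumours that stood apart and 0.52, 0.78 and 0.86 within cartridges. It was 0.55 without the 2 tumours farthest from the median of Ccl9, with an adjusted permutation p of 0.0504. Xcl1 and Xcr1 had r = 0.46 (rho = 0.39, adjusted permutation p = 0.0709) and Ccl20 and Ccr6 had r = -0.44 (rho = -0.47, 0.0808), so neither passed. Under positive controls the r of Xcl1 and Xcr1 was 0.12. Cxcl12 and Cxcr4 had r = 0.28 and Cxcl16 and Cxcr6 r = -0.24, which became 0.48 and 0.27 without the 2 tumours that stood apart, and Cxcl13 and Cxcr5 had r = 0.33. Cx3cl1 and Cx3cr1 had r = 0.40 (adjusted permutation p = 0.163), 0.18 without the 2 tumours, and 0.74 under positive controls, when the pair passed (adjusted permutation p = 0.00187).

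The 9 pairs of ligands that share a receptor were examined in the same way, again without the share over other gene pairs. Ccl6 and Ccl9 had r = 0.80 and rho = 0.80 (permutation p = 1e-05, adjusted permutation p = 9e-05), with r = 0.87 without the 2 tumours that stood apart, 0.78 without the 2 farthest from the median, and 0.73, 0.88 and 0.87 within cartridges. Ccl19 and Ccl21a, which lie 17.6 kb apart on chromosome 4, had r = 0.77 and rho = 0.79 (permutation p = 2e-05, adjusted permutation p = 9e-05), with r = 0.76 without the 2 tumours, 0.68 without the 2 farthest, and 0.67, 0.84 and 0.81 within cartridges. The other 7 pairs had adjusted permutation p-values of 0.061 or more for r, among them Ccl3 with Ccl9 (r = 0.29). Ccl3 with Ccl4 had r = 0.39 (adjusted permutation p = 0.0612) and rho = 0.47, which passed (adjusted permutation p = 0.0256), with Ccl4 above background in 6 lanes. Ccl3 lies 56.3 kb from Ccl6 on chromosome 11.

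**Figure D4:**
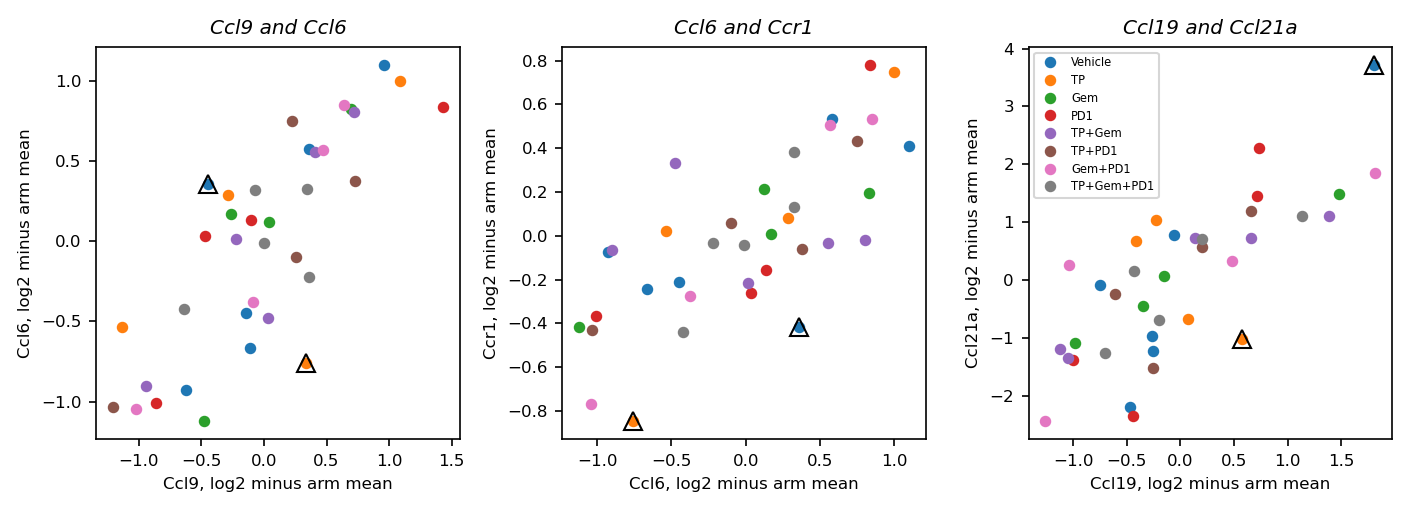
Each point is a tumour, coloured by arm, with log2 of the scaled count plus 1 minus the arm's mean on both axes; black triangles are the 2 tumours that stood apart. Ccl9 against Ccl6 has r = 0.80, Ccl6 against Ccr1 r = 0.74 and Ccl19 against Ccl21a r = 0.77.

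Members were also set against 9 marker lists, for B cells and lymphoid tissue, T cells, NK cells, macrophages, neutrophils, dendritic cells, stroma, endothelium and epithelium. Here a list's level was the mean of log2 of the scaled count plus 1 over its markers, not the summed scaled count given above. Of 261 correlations across the 36 tumours, 76 had an adjusted permutation p under 0.05, 64 of these positive, and 44 also passed without the 2 tumours. Only members were set against the lists. The share over all genes is therefore not known, and these counts do not show a trait particular to the members. Ccl9 followed the macrophage list with r = 0.81 and rho = 0.80 (permutation p = 1e-05, adjusted permutation p = 0.000435), and r was 0.81 without the 2 tumours, 0.80 without the 2 farthest from the list's median, and 0.92, 0.77 and 0.80 within cartridges. Ccl6, Ccr1, Ccl11 and Cxcl12 had r of 0.60, 0.58, 0.50 and 0.54 with the macrophage list, and Ccr1 had 0.73 with the stroma list.

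The ligands and receptors of lymphoid tissue went with several leukocyte lists at once. Ccl19 had r = 0.83 with the B cell and lymphoid tissue list (rho = 0.78, and 0.78 for r without the 2 tumours), 0.82 with the dendritic cell list and 0.77 with the T cell list. Ccr6 had 0.80 and 0.85 with the B cell and dendritic cell lists, and Cxcr5 had 0.76 and 0.79. These receptors were above background in 9 and 7 lanes. In most tumours only a minority of the 9 B cell and lymphoid tissue markers was above background. Most counts of these receptors and of many of those markers thus lie at or near background. The dendritic cell list rested on 3 of its 6 genes, Itgae, Flt3 and Irf8, because Clec9a, Batf3 and Zbtb46 were not on the panel. Ccl21a had 0.61 with the B cell list, 0.69 with the dendritic cell list and 0.69 with the endothelial list, and Cxcl12 had 0.70, 0.76 and 0.68. The epithelial list ran the other way, with r = -0.64 for Cxcl12, -0.64 for Cxcr6 and -0.42 for Ccl19.

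Among lymphocyte-derived ligands, Ccl5 had r = 0.61 with the T cell list, and 0.79 under positive controls. Xcl1 had r = 0.68 with the T cell list (0.55 under positive controls) and Ccl1 r = 0.69 with the NK cell list (0.47, and -0.10 within cartridge 3). Xcl1 was above background in 8 lanes and Ccl1 in 10, and 24 of the 36 tumours had at most 1 of the 5 NK cell markers above background, so most of these counts lie at or near background. Cx3cl1 had r = 0.68 with the epithelial list, which became 0.32 without the 2 tumours. The correlations with marker lists printed here had an adjusted permutation p of at most 0.0273 for r, adjusted over all 261, and rho had the sign of r in each; for Cx3cl1 the adjusted permutation p of rho was 0.083. Without the 2 tumours farthest from each list's median, the positive r lay between 0.41 (Cx3cl1) and 0.80 (Ccl9) and the negative r between -0.57 and -0.70. These points share a library and its scaling factor.

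**Figure D5:**
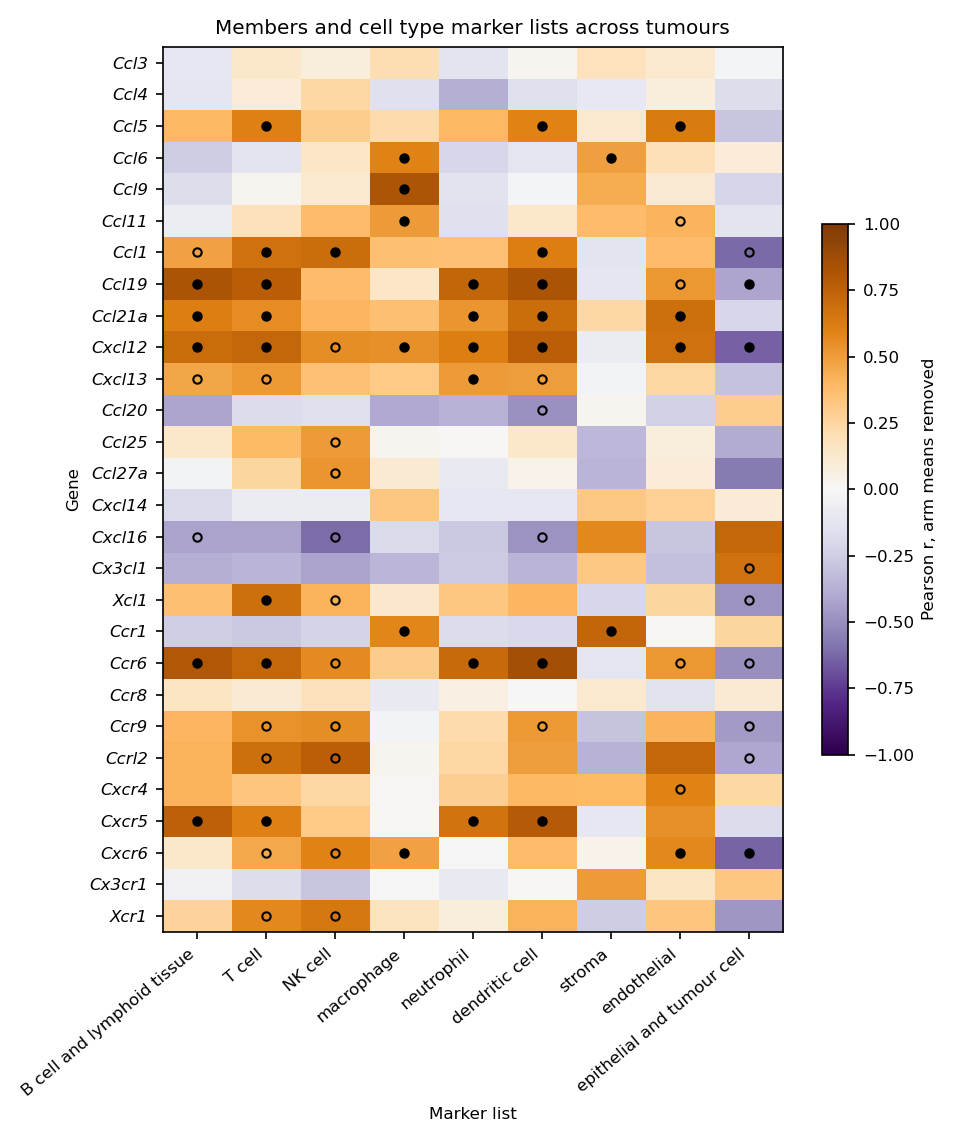
Colour is Pearson r across 36 tumours, with arm means removed, between each of 28 tested members (rows) and 9 marker lists (columns); a circle marks an adjusted permutation p under 0.05, filled where it also passed without the 2 tumours. Ccl9 is deepest for the macrophage list (0.81), and Ccl19, Ccr6 and Cxcr5 for the B cell and dendritic cell lists (0.76 to 0.85). The dendritic cell list rests on 3 of its 6 genes, and Ccr6 and Cxcr5 were above background in 9 and 7 lanes.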

How the data were processed

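RNA of 36 pancreatic tumours was counted with the nCounter PanCancer Immune panel. The deposited table holds a count per probe and tumour; the design text speaks of normalized values, but all 27720 deposited counts equal the raw counts of the deposited lane report, so they were treated as raw counts. The cartridge identifiers come from the same report, per the file headers, where 7 lanes carry a suffix of unknown meaning. Software behind the counting is not given in the sources used here.

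Each lane was scaled by the geometric mean of 20 housekeeping genes. Genes above the mean plus 2 SD of the lane's 8 negative controls in at least 4 lanes were tested, 683 of 750. Tests used edgeR 4.0.16 (R 4.3.3) quasi-likelihood with robust dispersion, on raw counts with library sizes set by the housekeeping factor, in 1 fit of all 36 tumours and 8 arms. Benjamini-Hochberg adjustment ran over all tested genes of each of 14 comparisons, and the threshold was 0.05. The fit was tested on simulated data. Correlations used log2 of the scaled count plus 1 with arm means removed and 100000 shuffles within arms, in Python 3.11.15.

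Genes named with all values were members with an unadjusted F test p under 0.05, the 6 with the highest mean scaled count, and those with a tumour far from the rest of its arm in at least 2 arms. Members and lists were chosen with earlier results of these data known. Correlations with marker lists and between ligands were added after seeing the data. Alternatives were TMM, positive controls, DESeq2 1.42.0, limma 3.58.1 with 2 pseudocounts, other filters, the cartridge as a block, and leaving out each tumour in turn. Promoter windows came from the RefSeq table (build GRCm38.p6), which held 26 of the 32 members. One member is counted in the totals and is otherwise not reported here.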

Additional observations from a re-analysis of the deposited data

Results flagged for a closer look

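In each arm of 4 to 6 tumours, the highest and lowest tumour of every tested member were compared with the rest by Dixon's test. Of 232 groups, 19 (8.19%) held a tumour far from the others, where chance flags about 1 in 20. The rate over the other genes was not computed, and the test weighs the gap against the arm's own range. Vehicle replicate 3 was far above its arm for Cxcl12 (853), Ccrl2 (224) and Ccl19 (82.3), beside a lung marker sum of 13970. Of these 19 values, 6 were not above lane background. TP-0903 replicate 3 was far above its arm for Ccl27a (88.0), Xcr1 (44.9) and Cxcr6 (18.7, not above background) and far below it for Cxcl16 (185) and Cx3cl1 (44.9), beside a hepatocyte marker sum of 176618. Its counts were divided by a housekeeping factor of 0.534: before that, Xcr1 was 24 against 22, 23 and 26 in its arm, and Cxcr6 was 10 against 9, 9 and 11.

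Among other ligands, Ccl20 was far above the rest in TP-0903+Gemcitabine replicate 3 (105), Ccl1 far below in Gemcitabine+anti-PD1 replicate 2 (12.8), Ccl4 far below in Vehicle replicate 5 (4.40, not above background) and Cxcl14 far below in triple-arm replicate 2 (599). Among receptors, Cxcr5 was flagged below the rest in Anti-PD1 replicate 2, though close to them (8.07 against 9.50 to 9.73). Ccr8 was far below in TP-0903+anti-PD1 replicate 4 (4.58 against 20.2 to 22.7), and neither flagged value was above background. Cxcr5 was above background in 0 of the 4 Anti-PD1 tumours. In TP-0903+anti-PD1, Xcr1 was far above in replicate 3 (25.2). Ccr9 was far below the rest in Gemcitabine replicate 3 (6.502) and TP-0903+Gemcitabine replicate 1 (11.5), both not above background, and far above in Gemcitabine+anti-PD1 replicate 2 (27.2). The reason for these values was not tested.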

How the results depend on the processing

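Over 639 alternative fits of the 14 comparisons, 635 called as many members as the reported fit, which was 0. Per comparison, 36 of these fits left out 1 tumour each, which for an arm against Vehicle often belonged to neither arm. Such fits could change the count little, so the 639 are not independent checks. For TP-0903 against Vehicle, leaving out 1 tumour gave 0 to 1 member called: Cxcl12 without Vehicle replicate 3, and Ccl9 without Vehicle replicate 5 or without TP-0903 replicate 2. For TP-0903+Gemcitabine against Vehicle, scaling by positive controls called 2 members, Ccrl2 (log2 -1.44, adjusted p = 0.0302) and Cxcr4 (-1.21, 0.0388), while it moved the median of all genes from 0.07 to -0.59 and the calls over all genes from 3 to 140; DESeq2 called 8 and limma 0. For TP-0903 against Vehicle DESeq2 called 8 genes and limma 0, against 33. Of 1367 alternative values of 30 single folds, 4 had another direction: Ccl20 (-0.13) and Ccl3 (-0.15) for TP-0903+Gemcitabine under positive controls, and Ccrl2 for the triple arm, which ran from -1.32 to 0.24 over the fits without 1 tumour and was 0.24 without Vehicle replicate 3, with or without TP-0903 replicate 3. Without the 2 tumours farthest from the ligand's median, 1 ligand-receptor pair passed instead of 2, and under positive controls 3 did, the third being Cx3cl1 with Cx3cr1. Cx3cl1 with Cx3cr1 had r = -0.17 within cartridge 2, and Xcl1 with Xcr1 had r = -0.39 within cartridge 3. The cause of these shifts was not tested. With cartridge as a block, 0 members were called, though 9 of 30 values with an unadjusted p under 0.05 moved by over 1.5 times, such as Cxcl13 in TP-0903+Gemcitabine (2.25 to 4.63) and Ccl27a in the triple arm (-0.64 to -1.53). No paired analysis was possible because the labels give no number shared between arms. Of the 29 tested members, 20 were not above background in some lanes, where a count only bounds the level.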
